A study of Rattus norvegicus with 4 samples.

Results

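The comparison described here sets the mammary gland of Sprague-Dawley rats (SDR) on day 1 of involution beside that of Sprague-Dawley rats on day 1 of lactation. It rests on 2 of the 4 arrays of the study, chosen by their labels, with 1 array for each stage. The other 2 arrays hold mammary gland RNA of heterozygous and of homozygous Hirosaki hairless rats (HHR), both on day 1 of lactation, and are printed beside the comparison as values only, since they are other genotypes and not replicates. The ages, the number of animals behind an array, any pooling and the length of lactation before involution were not given in the sources used here. A stage effect therefore cannot be told apart from a difference between individual animals, or from one between early and later lactation.

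The lactating mammary gland is an epithelium of secretory alveoli, surrounded by contractile myoepithelial cells, that makes caseins, lactose and fat droplets under the control of prolactin and its transcription factor Stat5. When milk is no longer removed, the gland enters involution. Its first phase is known for a switch from Stat5 to Stat3 signalling, for death and shedding of alveolar cells and for an acute phase response, and it can be turned back if suckling resumes.

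Values are MAS5 signals, a fluorescence intensity per probe set (a group of short probes for 1 transcript) on a linear scale. Values under 91.5, the 40th percentile of all probe sets, are called below the floor and were raised to it before a fold was taken, so that a fold against such a value is a lower bound. A gene was called higher or lower when its signal differed at least 2-fold between the stages. With 1 array a stage there is no replicate error and no test, and each difference below describes these 2 arrays.

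Of 14218 genes on the array, 11015 exceeded the floor in 1 or both of the SDR arrays. Signal was at least 2-fold higher in involution for 1129 of them (10.2%) and lower for 985 (8.94%), which together make 19.2%. By the same rule, heterozygous HHR differed from SDR at lactation in 8.72% of genes and homozygous HHR in 6.5%, and the 2 HHR arrays differed from each other in 6.89%. Only 442 of the 1129 higher genes (39.1%) also lay at least 2-fold above both HHR lactation arrays in involution. For the 985 lower genes, 478 (48.5%) lay at least 2-fold below both. Differences of at least 4-fold were found for 165 genes higher and 211 lower, and those of at least 16-fold for 19 higher and 20 lower. Among called genes, 564 had a further probe set above the floor, and in 454 of these all probe sets pointed the same way. The plot of both stages against each other shows how the differences fall along the range of signal. Of the 551 genes brightest in lactation (the top 5%, from a signal of 5269), 181 were lower in involution (32.8%) and 11 were higher. These genes were picked by the lactation value that enters the difference, so the split cannot be told apart from an effect of that choice. Among the 551 genes brightest in involution, 347 were the same.

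**Figure D1:**
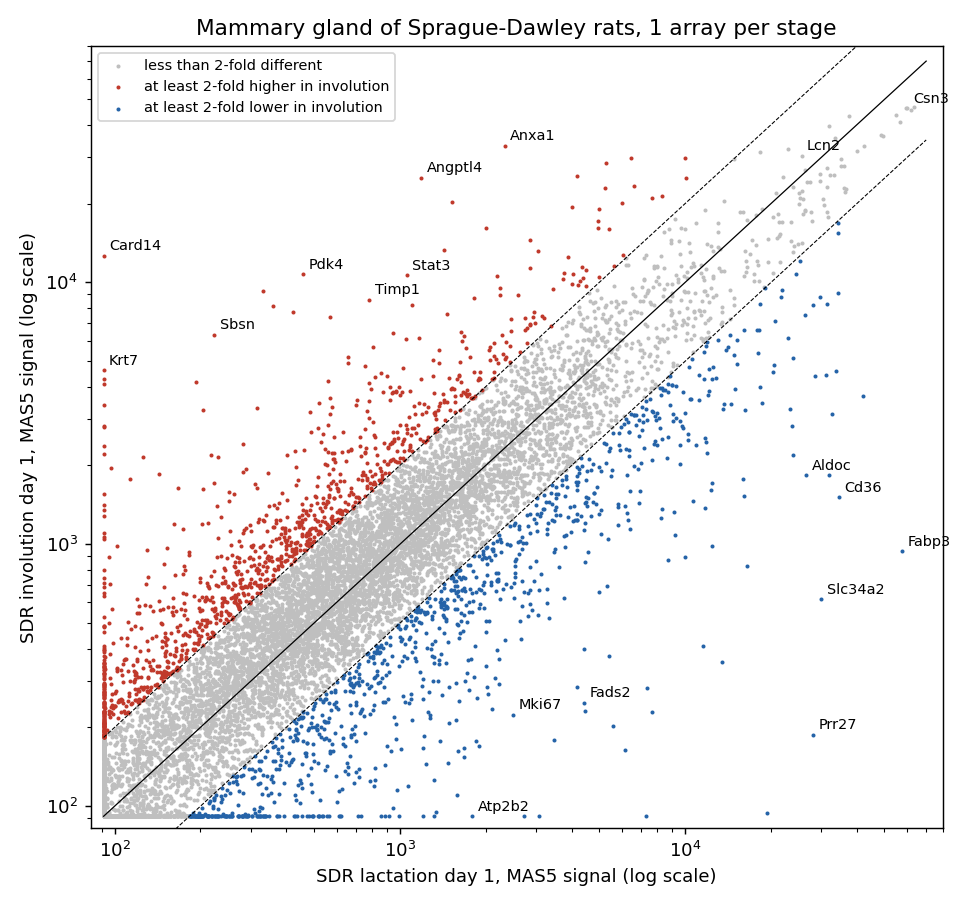
Signal of each measured gene in SDR lactation (horizontal, log scale) and SDR involution (vertical, log scale), with values below the floor drawn at it; the solid line marks equal signal and the dashed lines a 2-fold difference. The 1129 genes above the upper line are red and the 985 below the lower line blue. Of the 551 genes brightest in lactation, a set picked by the lactation signal itself, 181 are blue.

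The arrays themselves set limits on where a difference of 0 lies. The deposited scaling gives every array the same trimmed mean, and the median log2 difference over all measured genes was 0.08. Control RNAs added at hybridisation were lower in involution by a median log2 of -0.51 (18 probe sets), and those added before labelling were higher by 0.32 (24 probe sets). Scaling to the former would move the median of all genes to 0.55 and the counts to 2969 higher and 469 lower, and scaling to the latter would move the median to -0.23 and the counts to 627 and 1672. Higher genes made up 53.4% of the called genes as deposited, against 86.4% and 27.3% under these 2 scalings. Each list count below is to be read against the 10.2% of all genes that were higher and the 8.94% that were lower, and each list median against 0.08. Of 62 list medians, 19 took the other sign under scaling to the hybridisation controls, among them those of milk proteins, triglyceride assembly, cholesterol synthesis, glycolysis, ribosomal proteins, DNA replication, lysosome, clock, endothelial and fibroblast lists. Another 12 did so under scaling to the labelling controls, among them those of the caspase, clearance, autophagy, tight junction, TGF-beta, redox, macrophage and myoepithelial lists, and the direction of these medians is not settled.

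Some calls given below also depended on the setting. Under scaling to the hybridisation controls Akt1, Bad, Ccnd1, Fdps, Folr1, Id1, Msmo1, Spp1 and Stat5a did not reach 2-fold. Under scaling to the labelling controls this held for Agpat2, Bcl2a1, Bcl2l1, Igfbp5, Krt17, Lamp2, Mertk, Nfib, Socs3 and Tyk2. When all probe sets of a gene were averaged in place of taking the brightest, Akt1, Anxa2, Atp2b1, Bcl2l1, Casp8, Cdh1, Cp, Igfbp5, Lamp1, Mertk, Nfib and Pdk2 did not reach it. For the Gapdh controls, the 3′ signal over the 5′ signal, which grows as RNA breaks down, was 1.17 in SDR lactation, 1.93 in heterozygous and 2.30 in homozygous HHR lactation, and 1.60 in involution. For the actin controls the ratio was 4.60, 7.86, 5.91 and 4.80 in the same order, so the 2 SDR arrays lay close together there. The part of RNA quality in the differences was not tested.

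Milk protein genes were among the brightest in both stages. The casein genes Csn1s1, Csn2 and Csn3 had signals of 59405, 54651 and 60152 in lactation and 46394, 43743 and 46227 in involution. The whey protein gene Wap had 42513 in lactation and 33299 in involution. Lalba, the whey protein that turns galactosyltransferase into lactose synthase, had 48609.5 in lactation and 36580.3 in involution. Of 11 measured milk protein genes 0 were called higher and 1 lower (median log2 difference -0.36). A probe set of the spiked-in cre control, of similar brightness, had 56458 and 41005 in the same arrays, so the lower casein signal cannot be told apart from a difference between the arrays. The brightest signal of any probe set was 63449 in SDR lactation and 47462 in involution, so the caseins lay near the top of both arrays. Whether signals this high still follow the amount of RNA was not tested. Lpo, lactoperoxidase, had 8888 in lactation and 4545 in involution, and Spp1, osteopontin, was the called gene at 183 in lactation and below the floor in involution.

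Genes of fatty acid synthesis were lower in involution. Of 22 measured members 15 were at least 2-fold lower and 0 higher (median -1.76). The desaturases Fads1 and Fads2 lay at the far end. Fads1, which makes polyunsaturated fatty acids, had 32060.1 in SDR lactation, 30898 in heterozygous and 29471 in homozygous HHR lactation, and 1833 in involution. Its partner Fads2 had 4439 in lactation and 249 in involution (17.9-fold lower), and Scd, which makes monounsaturated fatty acids, had 2000.2 in lactation and 342 in involution (5.84-fold lower). The involution values of Fads1 and Fads2 thus lay far below all 3 lactation arrays. Acaca, the carboxylase that commits carbon to fatty acids, had 23834 in lactation and 2191 in involution (10.9-fold lower). Acss2, which activates acetate, was 6.51-fold lower, and Acly, which splits citrate to acetyl-CoA in the cytosol, was 3.73-fold lower. Olah, the thioesterase that ends synthesis early to give milk its shorter chains, had 27972 in lactation and 8200.4 in involution (3.41-fold lower).

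The regulators of lipid synthesis differed from one another. Srebf1, the sterol response factor that drives lipogenic genes, had 11899 in lactation and 2233 in involution (5.33-fold lower). Insig1, which holds that factor in the endoplasmic reticulum and is itself one of its targets, had 9975 in lactation and 893 in involution (11.2-fold lower). Thrsp, a promoter of lipogenesis, was 3.37-fold lower, with 29683 in SDR lactation against 10763 and 12333 in the HHR arrays. Scap, the escort of Srebf1, had 1015 in lactation and 904 in involution, and Mlxipl, a glucose-sensing factor, had 101 in lactation and 159.8 in involution. Neither of these 2 reached 2-fold.

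Uptake and binding of fatty acids from blood showed large differences in both directions. Of 15 measured members 7 were lower and 2 higher (median -0.78). Fabp3, a carrier of fatty acids in the cell, had 57721 in SDR lactation, 52813 in heterozygous and 45740.5 in homozygous HHR lactation, and 941 in involution. Cd36, a fatty acid translocase, had 34685 in SDR lactation, 15568 in heterozygous and 7958 in homozygous HHR lactation, and 1511 in involution, so that its lactation arrays also differed among themselves. Acsl1, which activates long chains to acyl-CoA, had 31152 in lactation and 4445 in involution (7.01-fold lower). Angptl4, a secreted inhibitor of lipoprotein lipase, stood at the other end, with 1186 in SDR lactation, 1719 in heterozygous and 6684 in homozygous HHR lactation, and 25142 in involution. It was 21.2-fold higher in involution than in SDR lactation, while Lpl, the lipase it inhibits, was 11.4-fold lower. Gpihbp1, which anchors that lipase on capillaries, was 3.09-fold lower. Fabp5, another carrier, had 31953 in lactation and 39723 in involution.

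**Figure D2:**
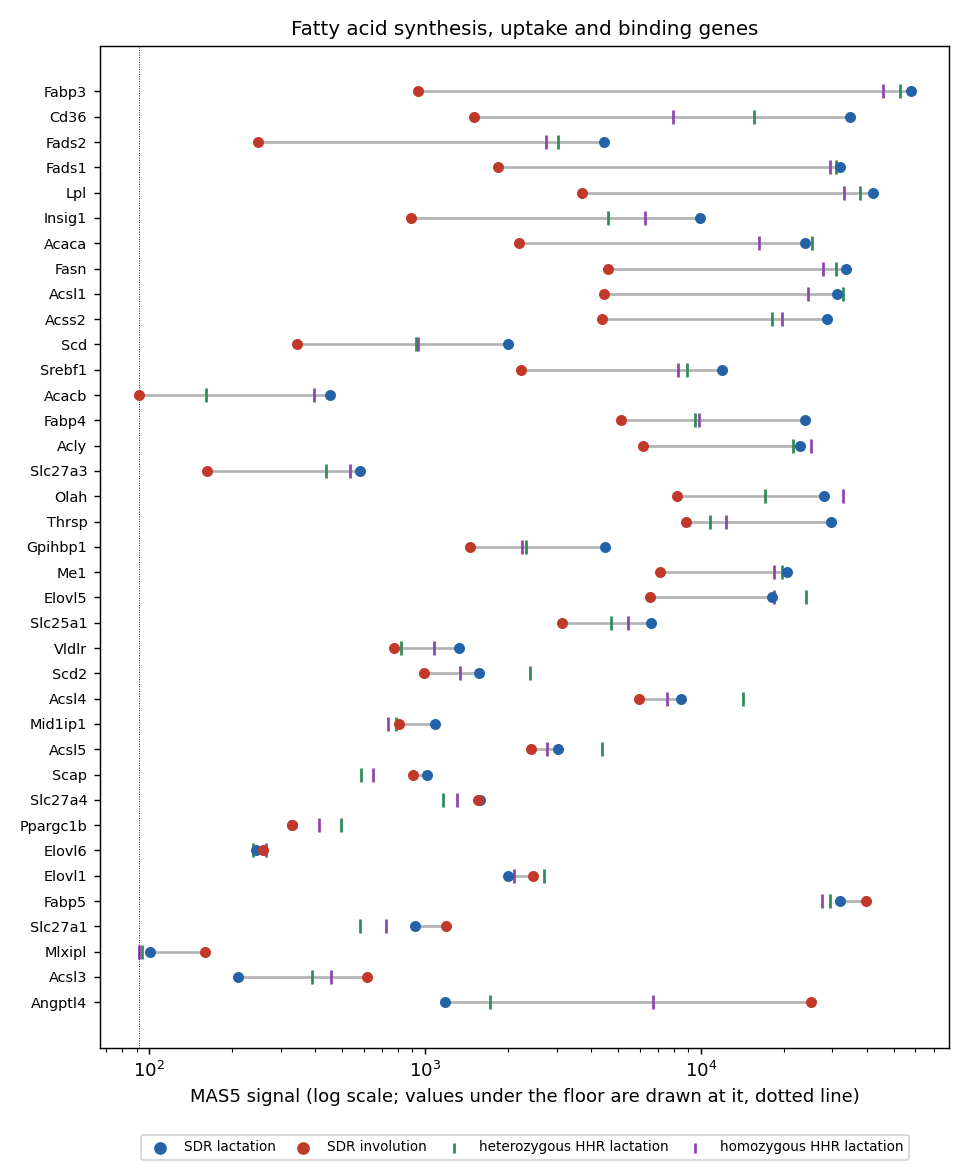
MAS5 signal (log scale) of the 37 measured genes of fatty acid synthesis, uptake and binding in SDR lactation (blue), SDR involution (red) and the 2 HHR lactation arrays (ticks), with values below the floor drawn at the dotted line. Most genes lie lower in involution, from Fabp3 at 57721 and 941 downwards, and Angptl4 lies higher at 1186 and 25142.

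Genes of triglyceride assembly and of the fat globule coat differed from one another. Of 20 measured members 5 were lower and 2 higher (median -0.46). The median was 0.05 under scaling to the hybridisation controls, where 4 were lower and 3 higher. Cidea, a lipid droplet protein needed for milk fat secretion, had 32754 in lactation and 3158 in involution (10.4-fold lower). Agpat1, an enzyme that adds the second acyl chain to glycerol, was 6.37-fold lower, while its relative Agpat2 was 2.41-fold higher. Gpat4, which adds the first chain, was 3.22-fold lower, and Lpin2, a phosphatidate phosphatase, was 3.24-fold higher. Xdh, xanthine oxidoreductase of the globule coat, had 35936 in lactation and 27905 in involution, and Plin2, which covers the droplet, had 30596 in lactation and 19720.4 in involution. The 2 coat genes were thus less than 2-fold apart, whereas the mucin Muc1 of the same coat was 6.51-fold lower. G0s2, an inhibitor of triglyceride lipase, was among the largest differences of all genes, with 11510.5 in SDR lactation, 20287 in heterozygous and 7546 in homozygous HHR lactation, and 407 in involution.

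Fat cells share many of these genes. Of 16 measured adipocyte markers 6 were lower and 0 higher (median -0.96). The lower count was 4 under scaling to the hybridisation controls (median -0.46) and 9 under scaling to the labelling controls (median -1.29). Without shared-probe suffixes 4 of 14 were lower (median -0.60), and with the mean of probe sets the median was -0.54. The summed signal of these markers was 81937 in lactation and 17337 in involution, to which the shared genes Lpl and Fabp4 contribute most. Adipoq, the adipokine adiponectin, had 1328 in SDR lactation, 1684 in heterozygous and 1601 in homozygous HHR lactation, and 427 in involution. Plin1, the droplet coat of fat cells, had 561 in lactation and 286 in involution, and Lep, leptin, was below the floor in both. In bulk tissue, fewer cells of a type and less RNA per cell cannot be told apart, here and in every result below. The part of fat cells in the lower lipid genes was not tested.

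Some cholesterol synthesis genes were lower. Of 19 measured members 7 were lower and 0 higher (median -0.44). Sc5d, a late desaturase of the sterol ring, had 1446 in lactation and 353 in involution (4.10-fold lower). Mvd, which makes isopentenyl diphosphate, was 3.56-fold lower, Msmo1, which removes methyl groups from the ring, was 2.80-fold lower, and Fdps, farnesyl diphosphate synthase, was 2.43-fold lower. Sqle, squalene epoxidase, had 513 in lactation and 469.7 in involution and Dhcr7, the last enzyme of the pathway, 1734 in lactation and 1985 in involution, less than 2-fold apart. The count of lower members was 2 of 19, without Msmo1 and Fdps, and the median 0.07 under scaling to the hybridisation controls.

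Lactose synthesis was lower in its transferase and its glucose supply. Of 12 measured members 6 were lower and 0 higher (median -0.97). With a floor at the 55th percentile 3 of 12 were lower. B4galt1, the galactosyltransferase that works with Lalba, had 11716 in SDR lactation, 12623 in heterozygous and 7057 in homozygous HHR lactation, and 1376 in involution. The glucose transporter Slc2a1 had 6331 in lactation and 1239.9 in involution (5.11-fold lower), and Ugp2, which makes UDP-glucose, was 2.90-fold lower. Slc35a2, which carries UDP-galactose into the Golgi, had 292 in lactation and lay below the floor in involution. Hk1 and Galt, which phosphorylate glucose and handle galactose, had log2 differences of 0.72 and 0.27, although another probe set of Hk1 pointed the other way.

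Most genes of glycolysis stayed within 2-fold, and several at its exit to the mitochondrion did not. Of 23 measured genes of glycolysis and pyruvate 3 were lower and 2 higher (median -0.42). Pdk4, a kinase that shuts off pyruvate dehydrogenase, had 457 in SDR lactation, 529 in heterozygous and 3914 in homozygous HHR lactation, and 10724 in involution, and was 23.5-fold higher in involution than in SDR lactation. Of its relatives, Pdk2 was 2.62-fold higher and Pdk1 was 3.25-fold lower. Pdhb, a subunit of the dehydrogenase, was 3.28-fold lower. Aldoc, an aldolase, had 26583 in lactation and 1838 in involution (14.5-fold lower), while its relative Aldoa had 8406 in lactation and 11313 in involution.

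Some mitochondrial genes were lower. Of 43 measured members 9 were lower and 0 higher (median -0.77). Slc25a10, which carries dicarboxylates out of mitochondria, had 2668 in lactation and 434 in involution (6.14-fold lower). Cs, citrate synthase, had 10232 in lactation and 2496 in involution (4.10-fold lower), Pc, pyruvate carboxylase, was 3.49-fold lower, and Idh3g, a subunit of isocitrate dehydrogenase, was 3.09-fold lower. The catalytic partner Idh3a had 773 in lactation and 1229 in involution, in the other direction and under 2-fold. Of 25 measured genes of the respiratory chain 5 were lower and 0 higher (median -0.79). Under scaling to the hybridisation controls none of the respiratory chain was called (median -0.28), and over the 43 mitochondrial genes 4 were lower and 2 higher (median -0.26).

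Carriers of ions, water and vitamins included some of the largest differences. Of 29 measured members 11 were lower and 4 higher (median -0.60). The lower count was 6 under scaling to the hybridisation controls. Slc34a2, a phosphate transporter of the alveolar cell, had 30067 in SDR lactation, 21678 in heterozygous and 22956 in homozygous HHR lactation, and 618 in involution. Aqp3, a water and glycerol channel, had 5596 in SDR lactation, 4971 in heterozygous and 3232 in homozygous HHR lactation, and 202 in involution. Involution lay far below every lactation array for both genes.

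Calcium pumps differed by type. Atp2b2, the pump that secretes calcium into milk, had 1794 in SDR lactation, 2706 and 386 in heterozygous and homozygous HHR, and lay below the floor in involution. Atp2c2, a calcium pump of the secretory pathway, was 6.05-fold lower. Atp2b1, the widely expressed plasma membrane pump, was 2.66-fold higher, with 1252 in lactation and 3335 in involution. It did not lie at least 2-fold above both HHR lactation arrays. Abcg2, a pump for riboflavin and for drugs in milk, was 3.41-fold lower, and Folr1, the folate receptor, was 2.65-fold lower, with 3841 and 4323 in the HHR arrays and thus within the lactation range in involution (4738). Slc30a4, a zinc transporter, had 7578 in lactation and 4793 in involution, with another probe set in the opposite direction.

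Many genes at the entry to the secretory pathway were lower. Of 19 measured genes of protein translocation into the endoplasmic reticulum 12 were lower and 0 higher (median -1.09). The counts were 8 lower and 1 higher under scaling to the hybridisation controls (median -0.58). Ssr1, a subunit of the translocon-associated complex, had 5834 in lactation and 1188 in involution (4.91-fold lower), and its partners Ssr2, Ssr3 and Ssr4 had log2 differences of -1.78, -1.64 and -1.80. Sec61b, a subunit of the translocation channel, had 20441 in lactation and 4841 in involution (4.22-fold lower). Rpn2, of the complex that attaches sugar chains, was 3.14-fold lower. Of 16 measured folding factors 2 were lower and 0 higher (median -0.52), and the chaperone Hspa5 had 21401 in lactation and 16967 in involution.

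Some genes of transport through the Golgi were lower. Of 29 measured members 11 were lower and 0 higher (median -0.92). The lower count was 7 under scaling to the hybridisation controls (median -0.41). Rab18, a small GTPase of lipid droplets and the endoplasmic reticulum, had 11759 in lactation and 2543 in involution (4.62-fold lower). The coat subunits Sec24d and Sec23b, which form vesicles leaving the endoplasmic reticulum, were 4.40-fold lower and 4.03-fold lower. Vamp8, a fusion protein of secretory vesicles, had 4451 in lactation and 5148 in involution. Ribosomal proteins had 0 of 18 measured members past 2-fold, but all 18 had a negative log2 difference (median -0.40). That median lay between those of the controls added at hybridisation (-0.51) and before labelling (0.32).

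In prolactin signalling the receptor was lower. Of 13 measured genes 4 were lower and 1 higher (median -0.32). Prlr, the prolactin receptor, had 12407 in SDR lactation, 11404 in heterozygous and 12461 in homozygous HHR lactation, and 4270.5 in involution. Stat5a had 3428 in lactation and 1419.7 in involution (2.42-fold lower), while its close relative Stat5b had 438 in lactation and 432 in involution. The log2 difference of Stat5a went from -1.27 to -0.76 under scaling to the hybridisation controls. Elf5, an alveolar transcription factor downstream of prolactin, had 13668 in lactation and 3420.2 in involution. Of the 4 lower genes, Prlr and Elf5 also lay at least 2-fold below both HHR lactation arrays, and Stat5a did not. Nfib, which binds milk protein genes beside Stat5, was 2.45-fold higher in involution, with 7665 and 7527 in the HHR arrays. Nr3c1, the glucocorticoid receptor that acts with Stat5, was 3.38-fold lower.

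Stat3 and many genes of its list were higher in involution. Of 28 measured members of the list 12 were higher and 1 lower (median 0.51). Of these 12, 5 also lay at least 2-fold above both HHR lactation arrays. Under scaling to the labelling controls 9 were higher (median 0.19), and with the mean of probe sets 10 were. Of the cytokine ligands of the pathway, 5 of 6 (Lif, Osm, Il6, Il11 and Clcf1) were below the floor in both stages. Stat3 itself had 1055 in SDR lactation, 1621 in heterozygous and 3359 in homozygous HHR lactation, and 10652 in involution. It was 10.1-fold higher in involution than in SDR lactation, and the homozygous HHR array lay between them. Of 5 measured receptors 1 was called higher, Il4r, through which interleukins 4 and 13 signal (5.21-fold higher). Without shared-probe suffixes Il4r had no value and 0 of 4 receptors were higher. Il6st, the shared receptor chain gp130, had 1936 in lactation and 3444 in involution, with another probe set in the opposite direction. Tyk2, a kinase of these receptors, was 2.17-fold higher, and Jak1 had 4934 in lactation and 5741 in involution.

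Among the targets, Timp1, an inhibitor of matrix metalloproteases, had 781 in SDR lactation, 552 in heterozygous and 779 in homozygous HHR lactation, and 8593 in involution, which put involution far above all 3 lactation arrays. Cebpd, a transcription factor of early involution, had 559 in SDR lactation, 816 in heterozygous and 4992 in homozygous HHR lactation, and 2854 in involution, so that the homozygous HHR array at lactation exceeded involution. Lbp, which delivers bacterial lipopolysaccharide to its receptor, had 4982 in lactation and 18997 in involution (3.81-fold higher). Ctsl, a lysosomal protease, had 8308 in lactation and 21459 in involution (2.58-fold higher). Socs3, the feedback inhibitor of Stat3, was below the floor in lactation and at 186 in involution. Pik3r3, a regulatory subunit of the survival kinase PI3K, was 5.16-fold lower. Its relative Pik3r1, which is known to rise with Stat3 in involution, had 2434 in SDR lactation, 312 in heterozygous and 461 in homozygous HHR lactation, and 2046 in involution, and so was alike in the 2 SDR arrays and low in both HHR arrays.

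**Figure D3:**
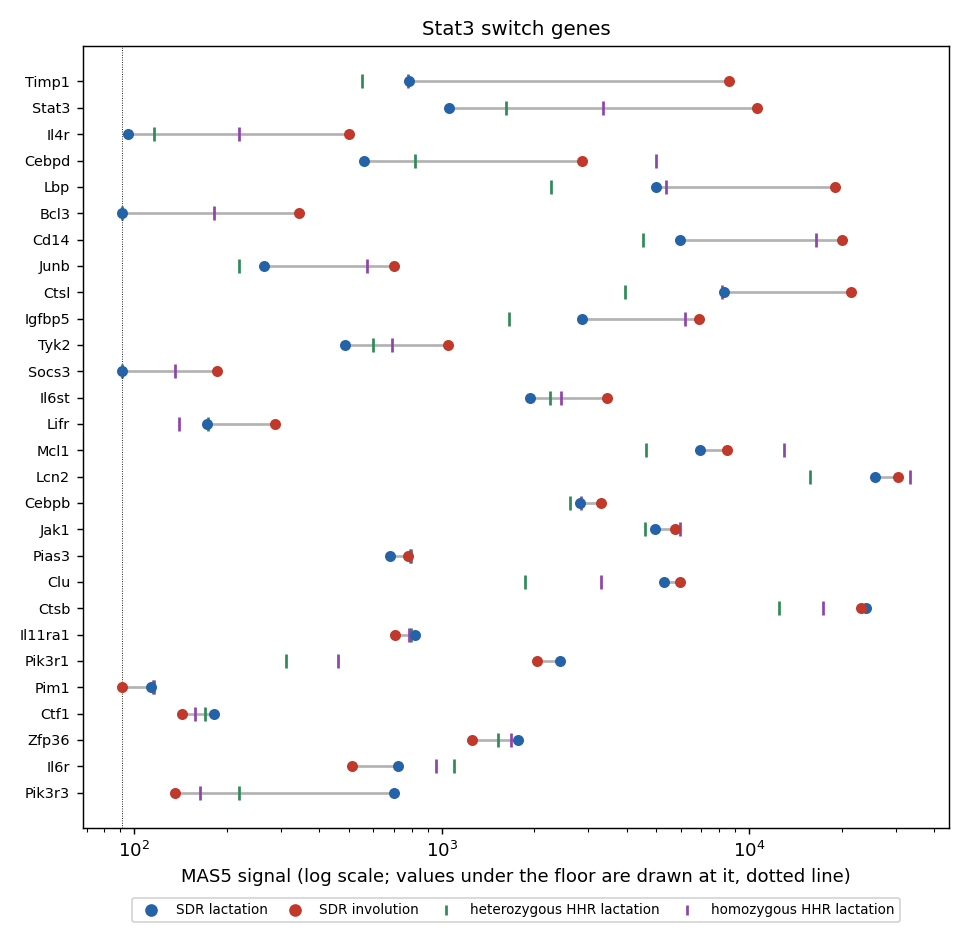
MAS5 signal (log scale) of the 28 measured genes of the Stat3 list in SDR lactation (blue), SDR involution (red) and the 2 HHR lactation arrays (ticks), with values below the floor drawn at the dotted line. Timp1 and Stat3 are the widest apart, at 781 and 8593 and at 1055 and 10652, and Pik3r3 lies lower in involution.

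Several acute phase and bacterial sensing genes were higher, with 10 of 22 measured members higher, 1 lower and a median of 0.92. With the floor as a pseudocount 6 of 22 were higher, and 6 of 23 under scaling to the labelling controls. Cd14, the lipopolysaccharide receptor, had 5985 in SDR lactation, 4533 in heterozygous and 16494 in homozygous HHR lactation, and 20076 in involution. C3, the central complement component, which stands in the complement list, had 6605 in lactation and 23251 in involution (3.52-fold higher). Cp, the copper carrier ceruloplasmin, was 2.90-fold higher, with another probe set in the opposite direction. Of 7 measured genes of the NF-κB pathway 5 were higher, among them its subunits Relb and Nfkb2 at 3.16-fold higher and 3.35-fold higher. Ly96, the partner of the lipopolysaccharide receptor Tlr4, was 3.07-fold lower. Lcn2, an iron-trapping antibacterial protein, was bright in both stages, with 25616 in lactation and 30462 in involution.

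Chemokines differed in both directions, with 6 of 21 measured members higher, 6 lower and a median of 0.37. Cxcl1, which draws neutrophils, was below the floor in SDR lactation and at 1046 in involution, with 1188 in homozygous HHR. Cx3cl1, which draws monocytes, was 3.82-fold higher. Ccl28, which draws antibody-secreting cells to the lactating gland, had 1673 in lactation and 154 in involution (10.9-fold lower). Cxcl9, a T cell chemokine induced by interferon gamma, had 3051 in SDR lactation, 391 in heterozygous and 391 in homozygous HHR lactation, and 538 in involution, so that the SDR lactation array stood above the other 3.

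Interferon response genes had 7 of 26 measured members higher, 1 lower and a median of 0.57. The higher count was 4 of 26 under scaling to the labelling controls. Ifit3, an antiviral effector, had 91.9 in lactation and 483 in involution (5.26-fold higher). Irf1, a transcription factor of the interferon response, had 762 in SDR lactation, 776 in heterozygous and 727 in homozygous HHR lactation, and 2325 in involution, and its 3 lactation values lay close together. The promoter of Irf1 is shown because it holds the motif TTCNNNGAA of the Stat family and had a called difference, with the motif in capitals. The stretch lies 162 to 113 bases before the start of the gene, from RefSeq on build GRCr8, as do the promoter stretches further on.

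Irf1, chr10:38417773-38417822, plus strand: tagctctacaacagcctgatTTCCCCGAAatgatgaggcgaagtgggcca

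Of 20 measured interferon response genes with a promoter in the RefSeq table, 7 held this motif on either strand between 250 bases before and 50 bases after the start (35.0%). Among all measured genes the share was 6.69%, among higher genes 7.79%, and it was 8.68% in all promoters listed by RefSeq. In the Stat3 list it was 1 of 21 and in the acute phase list 3 of 18.

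Immediate early genes, which are transcribed soon after a stimulus, had 7 of 28 measured members higher, 2 lower and a median of 0.27. Fos, a subunit of the AP-1 factor, had 402 in SDR lactation, 789 in heterozygous and 2047 in homozygous HHR lactation, and 2188 in involution. Junb, a partner of Fos, was 2.64-fold higher, and Jun had 852 in lactation and 1564 in involution with 4106 in homozygous HHR. The count of members that lay at least 2-fold above all 3 lactation arrays was 0. Myc, a growth regulator, had 371 in lactation and 207 in involution, and Dusp5, a phosphatase that restrains the kinase Erk, was 4.52-fold lower.

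Some genes of the Bcl2 family, which set the threshold for cell death, were higher, 5 of 10 on the death side and 2 of 5 on the survival side. Of 15 measured members 7 were higher and 1 lower (median 0.62). Bik, a promoter of cell death, had 114 in SDR lactation, 178 in heterozygous and 347 in homozygous HHR lactation, and 1772 in involution (15.6-fold higher). Bmf, another of that class, was 3.35-fold higher, and Bak1, which opens the mitochondrial membrane, was 2.87-fold higher. On the survival side Bcl2a1 and Bcl2l1 were 2.50-fold higher and 2.10-fold higher, and Mcl1 had 6951 in lactation and 8474 in involution. Under scaling to the labelling controls the count on the survival side was 0 of 5 and on the death side 3 of 10, and with the mean of probe sets the log2 difference of Bcl2l1 was 0.52. Bad, which promotes death when survival kinases are off, was 2.45-fold lower.

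Of 24 measured caspases, death receptors and their inhibitors 6 were higher and 0 lower (median 0.16). The inflammatory caspases Casp12 and Casp1 were 3.88-fold higher and 2.98-fold higher, and Casp8, which acts at death receptors, was 2.68-fold higher with another probe set in the opposite direction. Birc3, an inhibitor of cell death, was 3.92-fold higher. Fas, a death receptor, had 336 in lactation and 563 in involution. Of the stress genes, Gadd45a, a growth arrest gene, had 822 in lactation and 4369.8 in involution (5.32-fold higher), and Gadd45b was below the floor in lactation and at 687 in involution.

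Lysosomal genes lay on both sides. Of 36 measured members 6 were higher and 7 lower (median -0.10). With the hybridisation controls as the scale 8 were higher and 2 lower. The membrane proteins Lamp1, Lamp2 and Scarb2 were 2.67-fold higher, 2.48-fold higher and 3.61-fold higher. With the mean of probe sets the log2 difference of Lamp1 was 0.47 in place of 1.42, and that of Lamp2 was 0.99 under scaling to the labelling controls. Lgmn, the protease legumain, had 996 in lactation and 3996 in involution (4.01-fold higher), while Ctsh, a cathepsin, had 31498 in lactation and 8287 in involution (3.80-fold lower). Ctsb and Ctsd, the cathepsins most often described in involution, had 23961 in lactation and 23153 in involution and 11650.4 in lactation and 10256 in involution, respectively. Of 14 measured autophagy genes 1 was higher, Wipi1 at 3.70-fold higher.

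For clearance of dead cells, 4 of 20 measured genes were higher and 1 lower (median 0.31). Mertk, an engulfment receptor, had 135 in lactation and 334 in involution (2.47-fold higher), and Mfge8, the bridge between dead cells and engulfing cells, had 16332 in lactation and 12030.4 in involution. Macrophage markers had 0 of 15 measured members higher and 1 lower (median 0.04), and Cd68 had 675 in lactation and 703 in involution.

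Matrix proteases and inhibitors had 8 of 26 measured members higher, 4 lower and a median of 0.52. Mmp12, an elastase of macrophages, had 514 in lactation and 1666 in involution (3.24-fold higher), and Mmp14, a protease on the cell surface, was 2.52-fold higher. Adam8 and Adam17, which shed surface proteins, were 5.79-fold higher and 2.96-fold higher. Adamts5, which cuts proteoglycans, was 3.74-fold lower. Mmp3, Mmp7, Mmp9, Mmp10, Mmp13 and Mmp16 were below the floor in both stages, so a difference in them was not detectable.

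Simple epithelial keratins and some related markers of luminal cells were higher. Of 13 measured members 6 were higher and 1 lower (median 0.78). The lower one was the mucin Muc1, with a log2 difference of -2.70. Krt7 was below the floor in SDR lactation, at 102 and 361 in heterozygous and homozygous HHR and at 4619.9 in involution. Krt8 had 5233 in SDR lactation, 6469.6 in heterozygous and 9013 in homozygous HHR lactation, and 22879.7 in involution, and its partner Krt18 had 4954 in lactation and 17138 in involution (3.46-fold higher). Krt19 was 4.84-fold higher and Cdh1, the adhesion protein E-cadherin, 3.97-fold higher. Other members of the same list stayed within 2-fold, among them Epcam with 18298 in lactation and 31413 in involution, Cldn7 with 5431 in lactation and 5534 in involution and Cd24 with 31429.8 in lactation and 27350.3 in involution. Myoepithelial markers had 2 of 14 measured members higher, Krt14 at 4.64-fold higher and Krt17 at 2.43-fold higher, and 1 lower (median 0.16).

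Genes best known from stratified or ductal epithelium stood among the largest differences. Sbsn and Dmkn, secreted proteins of the epidermis, had 224 in lactation and 6318 in involution and 330.3 in lactation and 9293 in involution, respectively. Card14, a scaffold for NF-κB in keratinocytes, was below the floor in SDR lactation, at 1101 in homozygous HHR and at 12657 in involution, a lower bound of 138-fold. Of 9 measured markers of skin and ductal epidermis 5 were higher and 0 lower (median 1.04), while Krt4, Krt13, Sprr1b, Sprr3 and Ivl were below the floor in both stages. Krt1 and Krt10, keratins of the upper epidermis, were at least 2.86-fold higher and 2.63-fold higher, and the part of skin or duct tissue in the sampled gland was not tested. Dsc2, a desmosomal cadherin, had 143 in lactation and 1859 in involution.

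The annexins and S100 proteins, which bind calcium, had 10 of 19 measured members higher, 1 lower and a median of 1.41. The median was 0.84 with the mean of probe sets, where Anxa2 also had 0.84, and 0.92 with a floor at the 55th percentile. Anxa1, a regulator of inflammation, had 2335 in SDR lactation, 2345 in heterozygous and 12820.5 in homozygous HHR lactation, and 33255 in involution. S100a6 had 1431 in lactation and 13292 in involution (9.29-fold higher), and Anxa2 and its partner S100a10 were 3.20-fold higher and 2.74-fold higher. S100a8 and S100a9, which form calprotectin, were below the floor in SDR lactation and at 2809 and 1408 in involution. Neutrophils are rich in both, and of the other neutrophil markers Csf3r reached 122 in involution while Ncf1, Mmp8 and Np4 were below the floor there, and Cxcr2, Camp, Mmp9 and Il1r2 were below it in both stages. Lgals3, a sugar-binding protein of epithelium and macrophages, had 1528 in lactation and 20286 in involution (13.3-fold higher).

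Tight junction genes had 2 of 14 measured members higher and 2 lower (median 0.16). Both shares are close to the 10.2% and 8.94% of all genes. Cldn4 was 3.92-fold higher and Cldn8 was 3.23-fold lower. Cxadr, an adhesion protein of the junction, was below the floor in SDR lactation and at 1106 in involution.

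Genes of mitosis were lower in involution. All 23 measured members were at least 2-fold lower in involution, with a median of -2.51, and 10 of them were below the floor there. The count was 21 of 23 under scaling to the hybridisation controls, without Aurka and Birc5, and 21 of 23 with the mean of probe sets, without Cdc20 and Kif23. With a floor at the 55th percentile it was 19 of 23 and the median -1.63. Mki67, a marker of dividing cells, had 2496 in SDR lactation, 10701 in heterozygous and 4059 in homozygous HHR lactation, and 224 in involution. Top2a, which untangles chromosomes, had 1322 in SDR lactation, 6117 and 2412 in heterozygous and homozygous HHR, and lay below the floor in involution. Ccnb2, a mitotic cyclin, had 1233 in SDR lactation, 3470.5 in heterozygous and 1297 in homozygous HHR lactation, and 145 in involution. Cdk1, the kinase it drives, had 1261 in SDR lactation, 4779.6 in heterozygous and 1687 in homozygous HHR lactation, and 272 in involution. For all 23 genes involution was also at least 2-fold below both HHR arrays. These differences all use the 1 involution array.

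**Figure D4:**
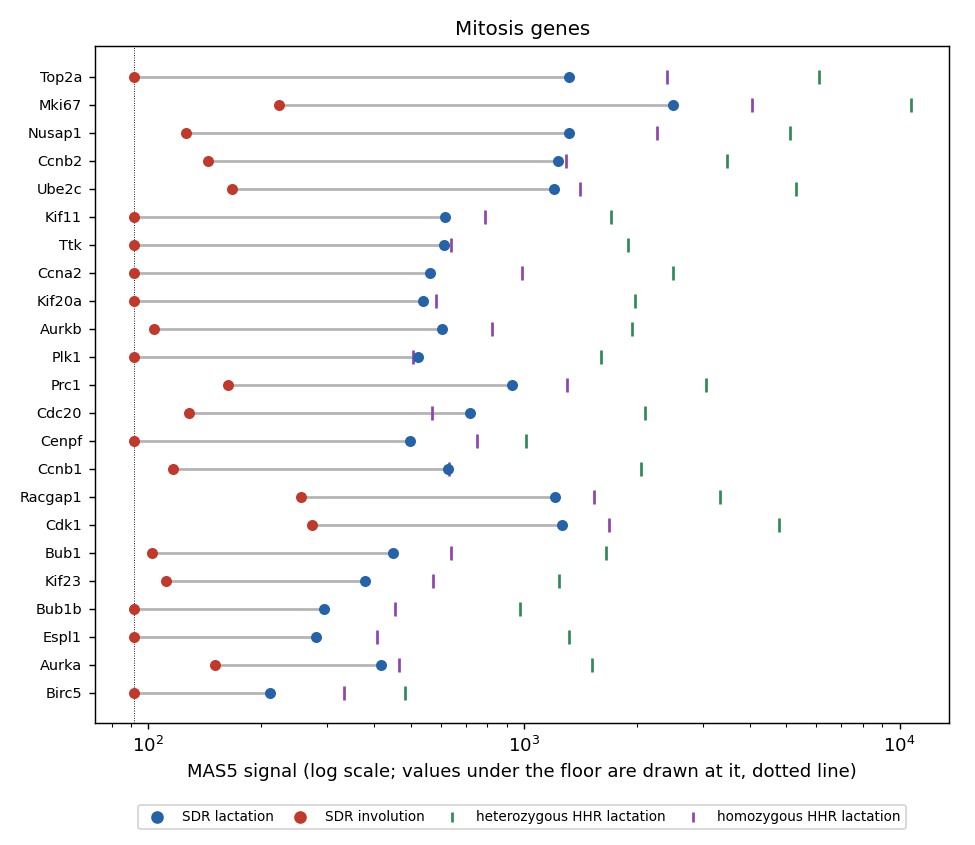
MAS5 signal (log scale) of the 23 measured mitosis genes in SDR lactation (blue), SDR involution (red) and the 2 HHR lactation arrays (ticks), with values below the floor drawn at the dotted line. Involution is the lowest of the 4 arrays for each gene, and heterozygous HHR the highest, for example 10701 for Mki67 against 224 in involution.

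Most genes of DNA replication stayed within 2-fold. Of 21 measured members 3 were lower and 2 higher (median -0.22). Mcm2 and Mcm6, subunits of the replicative helicase, had 518 in lactation and 461 in involution and 672 in lactation and 784 in involution, respectively. Tk1, which salvages thymidine, was 3.46-fold lower. Of 16 measured genes around the G1 phase 6 were lower and 1 higher (median -0.75). Of these 16, 3 were lower under scaling to the hybridisation controls. E2f1, a factor that opens S phase, had 490.4 in lactation and 114 in involution (4.32-fold lower), and Ccnd1, a cyclin of G1, had 3249.9 in lactation and 1449 in involution (2.24-fold lower).

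Promoters of the mitosis genes are shown because all members were lower together and most hold the CCAAT motif, which the factor NF-Y binds. CCAAT or its reverse ATTGG was found in 16 of 19 mitosis promoters (84.2%), in 13 of 15 promoters of cholesterol synthesis (86.7%) and in 63.2% of those of fatty acid synthesis. Of the other lists searched, protein translocation and folding had 68.4%, interferon response 10 of 20 promoters, lysosome 48.3%, the Stat3 list 38.1% and the acute phase list 16.7%, so that lists with called members on both sides also exceeded the share of all genes. The share was 37.8% among all measured genes, 37.7% in all promoters listed by RefSeq, 44.0% among lower and 37.8% among higher genes. The motifs TCACNCCAC of Srebf1 and its relatives, TGANTCA of AP-1 and CACGTG (E box) were also searched. The Srebf1 motif was in 0 of 15 promoters of cholesterol synthesis and 0 of 19 of fatty acid synthesis. Its share was 1.1% among all measured genes, so lists this small cannot show a shortage. AP-1 and E box shares were 4.86% and 9.56% among all measured genes. The highest list shares were 4 of 20 for AP-1 (interferon response) and 24.1% for the E box (lysosome). The 150 bases before the start of 3 mitosis genes and of the sterol gene Msmo1 follow, chosen after the CCAAT motif was found, with CCAAT or ATTGG in capitals.

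Ccnb2, chr8:79981659-79981808, minus strand: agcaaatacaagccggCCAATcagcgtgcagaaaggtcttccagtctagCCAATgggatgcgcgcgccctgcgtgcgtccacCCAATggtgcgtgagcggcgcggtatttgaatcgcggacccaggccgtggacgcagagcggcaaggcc
Cdk1, chr20:19265143-19265292, plus strand: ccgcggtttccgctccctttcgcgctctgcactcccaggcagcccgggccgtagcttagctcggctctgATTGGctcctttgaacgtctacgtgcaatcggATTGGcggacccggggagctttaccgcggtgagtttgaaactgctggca
Ccnb1, chr2:33655226-33655375, minus strand: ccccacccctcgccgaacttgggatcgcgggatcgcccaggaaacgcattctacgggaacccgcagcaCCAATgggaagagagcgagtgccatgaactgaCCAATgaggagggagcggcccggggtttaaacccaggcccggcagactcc
Msmo1, chr16:29746963-29747112, plus strand: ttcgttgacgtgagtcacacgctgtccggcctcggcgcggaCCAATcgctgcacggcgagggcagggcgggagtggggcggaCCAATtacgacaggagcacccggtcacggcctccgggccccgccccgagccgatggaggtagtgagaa

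Ccnb2 holds 3 copies in this stretch and the other 3 genes 2 each. A match is a description of the letters and does not show binding.

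Of 29 measured genes of the TGF-beta and activin pathway 4 were higher and 4 lower (median 0.05). Both shares are close to the 10.2% and 8.94% of all genes. Inhbb, a subunit of activin, was 4.44-fold higher, and Tgfb3, a ligand known from early involution, had 4047 in SDR lactation, 2099 in heterozygous and 8809 in homozygous HHR lactation, and 7209 in involution. The inhibitors of differentiation Id1, Id2 and Id3, targets of this family, were 2.81-fold lower, 3.05-fold lower and 3.33-fold lower. In involution Id1 and Id3 had 657 and 705, close to the heterozygous HHR values of 672 and 777. Of these 3 genes, 0 lay at least 2-fold below both HHR lactation arrays. Without shared-probe suffixes 2 of the 4 measured targets had a value above the floor, and 1 was lower. Of the insulin-like growth factor genes, Igfbp5, which sequesters these factors, had 2855 in SDR lactation, 1656 in heterozygous and 6181 in homozygous HHR lactation, and 6887 in involution, with another probe set in the opposite direction, and Igf1 had 2612 in lactation and 1979 in involution. The insulin-like growth factor list had 1 of 12 measured members higher and 2 lower (median -0.17). Akt1, a survival kinase, had 6643 in lactation and 3112 in involution (2.13-fold lower). In the PI3K and Akt list 3 of 17 measured genes were lower and 0 higher (median -0.22). Wnt5b, a secreted ligand, had 95.4 in lactation, close to the floor, and 893 in involution (9.36-fold higher). Of 18 measured Wnt pathway genes 3 were higher and 4 lower (median -0.32, and 0.19 under scaling to the hybridisation controls).

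Vessel genes differed from one another. Of 16 measured angiogenesis factors 4 were lower and 0 higher (median -0.50). Under scaling to the hybridisation controls 3 of 17 were lower and 2 higher (median 0.03). Apln, apelin, a peptide of growing vessels, had 7682 in SDR lactation, 5632 in heterozygous and 2608 in homozygous HHR lactation, and 229 in involution. Vegfa, the main endothelial growth factor, had 2688 in lactation and 580.5 in involution (4.63-fold lower), and its receptor Kdr had 3286 in lactation and 597 in involution (5.50-fold lower). The Kdr value comes from a probe set whose probes are shared by several transcripts, and its other probe sets were below the floor in both arrays. Endothelial markers had 3 of 17 measured members lower and 3 higher (median -0.34), and Pecam1 had 747 in lactation and 902 in involution. The higher ones were Vwf, Prox1 and Lyve1, with log2 differences of 1.24, 1.14 and 1.01. The counts were 1 lower and 3 higher under scaling to the hybridisation controls, and 7 and 0 under scaling to the labelling controls. Hbb, a globin of red cells, had 14503 in SDR lactation, 4461 in heterozygous and 6945 in homozygous HHR lactation, and 3425 in involution, so that the SDR lactation array held the most. T and NK cell markers had 2 of 14 measured members lower and 0 higher (median -0.51), and fibroblast and matrix markers 1 of 26 lower and 2 higher (median -0.23).

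Metal and redox genes included single large differences. Of 30 measured members 8 were higher and 4 lower (median 0.20). Mt2A, a metallothionein that binds zinc and copper, had 358 in SDR lactation, 664 in heterozygous and 1368 in homozygous HHR lactation, and 8109 in involution. Gpx2, a glutathione peroxidase of epithelia, was below the floor in SDR lactation and at 1354 in involution, whereas Gpx1, the general form, had 18308 in lactation and 3994 in involution (4.58-fold lower). Sod2, the mitochondrial superoxide dismutase, was 4.80-fold higher. Sat1, which starts polyamine breakdown, had 4193 in lactation and 25515 in involution (6.08-fold higher), and Srm, which makes spermidine, was 5.81-fold lower. Of 12 measured polyamine and arginine genes 1 was higher and 4 lower (median -0.39).

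Clock genes had 3 of 17 measured members higher and 6 lower, with a median of -0.34. Scaled to the hybridisation controls, 2 were lower. Bmal1, the core activator, had 675 in lactation and 187 in involution (3.60-fold lower), and Cry1, a repressor, was 5.89-fold lower. Per3 and Bhlhe41 were 4.79-fold higher and 5.81-fold higher. The time of day of sampling was not given in the sources used here, and its part was not tested.

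Further genes with the largest differences fell outside these groups. Prr27, a proline-rich secreted protein gene, had 28013 in SDR lactation, 43187 in heterozygous and 29696 in homozygous HHR lactation, and 187 in involution. Car2, a carbonic anhydrase, had 7362 in lactation and 283 in involution, and Aass, which starts lysine breakdown, had 3459 in lactation and 178 in involution (19.4-fold lower). Ass1, which makes argininosuccinate, was 19.2-fold lower. Ccn3, a matricellular protein, had 13493 in SDR lactation, 9512 in heterozygous and 6573 in homozygous HHR lactation, and 356 in involution. C2cd4b had 7289 in SDR lactation and 681 in homozygous HHR, and lay below the floor in involution.

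On the higher side, Wfdc2, a protease inhibitor of epithelia, had 96.8 in lactation and 1949 in involution (20.1-fold higher). Ubd, a ubiquitin-like protein induced by cytokines, had 422 in SDR lactation, 529 in heterozygous and 1553 in homozygous HHR lactation, and 7738 in involution. Vtcn1, an inhibitor of T cell activation, was below the floor in SDR and heterozygous HHR lactation and at 2841 in involution. Pdlim5, a scaffold protein, was 15.9-fold higher, although its other probe sets differed by log2 values of 0.05 to 1.25. Sdr16c5, a retinol dehydrogenase of epithelia, was 21.6-fold higher.

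A few of the largest differences came with lactation arrays that disagreed. Scgb1d2-ps1, a secretoglobin pseudogene, had 19375 in SDR lactation, 722 in heterozygous and 3817 in homozygous HHR lactation, and 94.4 in involution, so that the SDR lactation array stood apart from both HHR arrays as well. Slc28a3, a nucleoside transporter, had 6177 in SDR lactation, 961 in heterozygous and 555 in homozygous HHR lactation, and 164 in involution. RT1-CE5, of the rat major histocompatibility complex, had 16488 in SDR lactation, 151 in heterozygous and 117 in homozygous HHR lactation, and 825 in involution. RT1-Ba was at least 37.1-fold higher at its brightest probe set, but 3 further probe sets pointed the other way. The RT1 genes are near-identical copies, so that their probe sets may report on several genes and their values are uncertain.

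**Figure D5:**
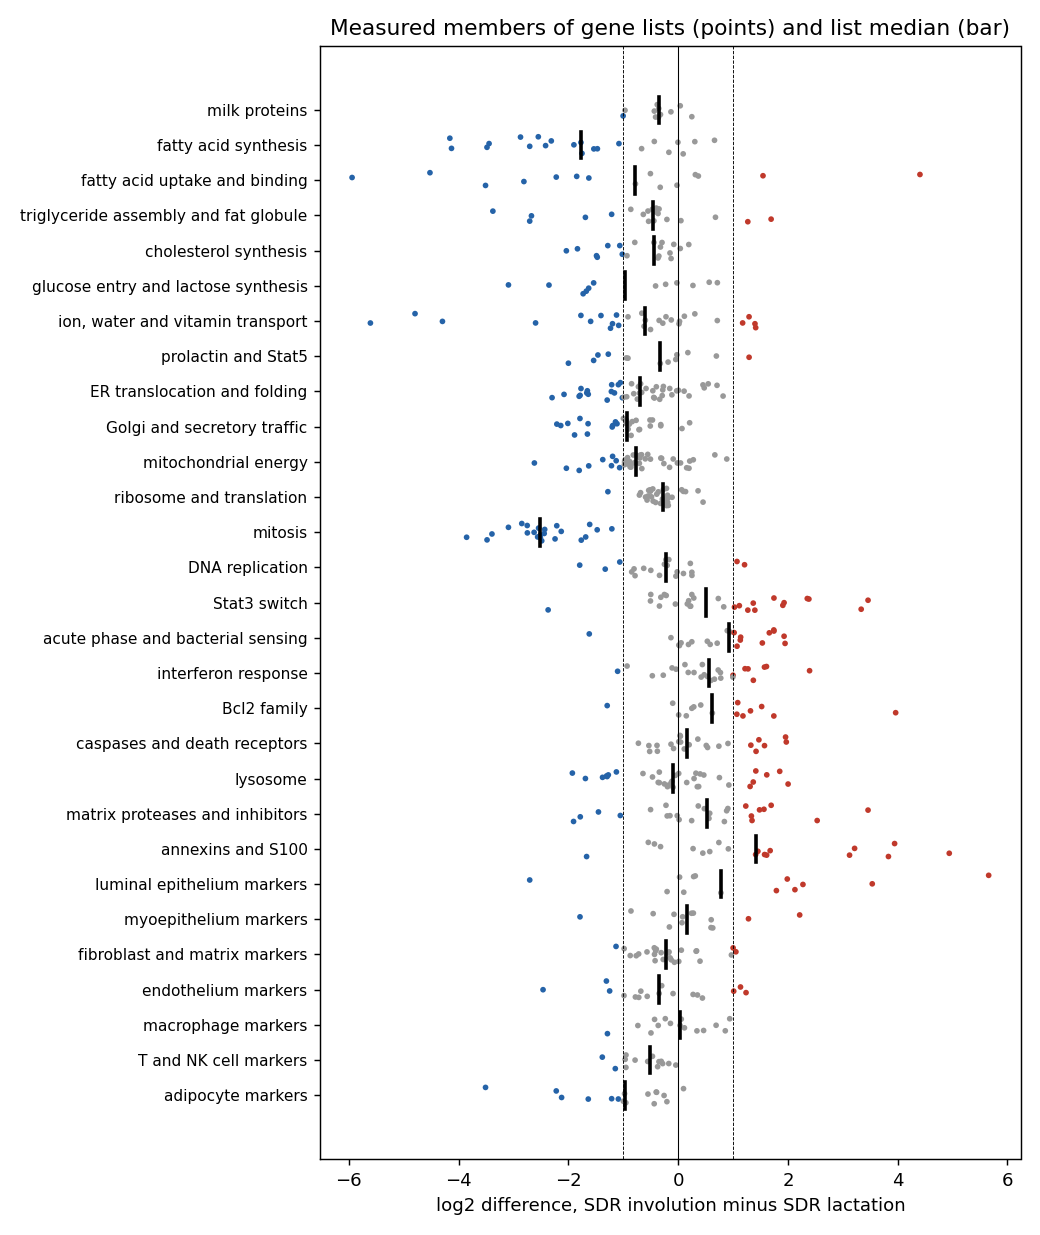
Log2 difference of each measured member (points) in SDR involution minus SDR lactation for the main gene lists, with the list median as a black bar, the solid line at no difference and dashed lines at 2-fold. Of the lists drawn, mitosis (median -2.51) and fatty acid synthesis (-1.76) lie farthest to the left, and annexins and S100 proteins (1.41) farthest to the right.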

How the data were processed

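RNA of rat mammary gland was hybridised to 1 array per group. What the authors deposited is 1 linear intensity for each probe set, computed with MAS5, a method named in the submitters' processing notes without a version. Every array had a trimmed mean of about 500.2 after leaving out 2% of probe sets at each end. Detection calls were not given in the sources used here.

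Of 31099 probe sets, 57 were controls, 20832 had 1 gene symbol in the platform annotation, 436 several and 9774 none, and only those with 1 symbol were named. Signals below the pooled 40th percentile (91.5) were raised to it. A gene was represented by its brightest probe set over the 4 arrays, and 31.8% of genes had several. Differences are log2 of involution minus lactation, and the number of arrays limits their precision. No test was possible.

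Genes named were the 15 largest differences in each direction with both values above the floor and agreeing probe sets, the 8 brightest in each direction at the floor in 1 array, and measured members of 62 gene lists (1368 entries, 1226 on the array, 9 through an older symbol, 1118 measured), from which a selection is given. The members and lists were chosen with earlier results of these data known, and genes may belong to several lists. Promoters came from RefSeq (GRCr8), the first entry for a symbol. Alternatives were median centring, quantile normalization, floors at the 25th and 55th percentile, the floor as a pseudocount, the mean of probe sets, a 3-fold threshold, probe sets without shared-probe suffixes and, chosen after seeing the data, scaling to control RNAs. Counting steps, written with pandas 2.3.3 and numpy 2.4.6, were tested on simulated data.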

Additional observations from a re-analysis of the deposited data

How the results depend on the processing

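No paired analysis was possible because each group has 1 array. As deposited, 1129 genes were higher and 985 lower. A 3-fold threshold gave 345 and 400. Scaling to the hybridisation controls gave 2969 and 469, and scaling to the labelling controls gave 627 and 1672. These moved by construction, through the threshold or the shift of every gene. Median centring gave 978 and 1115, quantile normalization 1044 and 1047, and the mean of probe sets 887 and 925, so that the larger direction turned in each of these. The other alternatives kept both counts within 1.5 times. With the mean of probe sets the log2 difference of RT1-Ba reversed to -1.80. Of 357 called list members, 77 lost the call under scaling to the hybridisation controls and 44 under scaling to the labelling controls. With the mean of probe sets 48 lost it, with the pseudocount 46 and with the floor at the 55th percentile 43. Under quantile normalization 19 lost it and under median centring 12. Without shared-probe suffixes 4 lost the call and 335 kept it, and the remaining called members had no value. With the floor at the 25th percentile 0 lost it. With the floor at the 55th percentile Krt1, Mertk, Slc35a2, Socs3 and Spp1 were under 2-fold, and the skin and ductal list had 2 of 5 measured members higher. Cdc20 and Kdr were below the floor in both arrays without shared-probe suffixes. Sbsn, Cd36, Scgb1d2-ps1, RT1-CE16, Il4r and Bad are among the called genes without a value under that setting. Weak genes are limited by the floor, where 154 higher and 133 lower genes lay in 1 array.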
